A study of Mus musculus with 3 samples.

Results

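Tenomodulin (*Tnmd*)-positive fibroblasts of healing mouse skin were examined on Day 14 after wounding. They were chosen by measured values, as barcodes of the Day 14 library with at least 2000 unique molecular identifiers (UMIs, 1 per captured transcript), at most 10% mitochondrial UMIs, at least 1.5% of UMIs from 8 fibroblast genes (*Dcn*, *Lum*, *Pdgfra*, *Col6a1*, *Col6a2*, *Col5a1*, *Pcolce* and *Col1a2*), under 0.3% from 4 myeloid genes (*Lyz2*, *Tyrobp*, *Fcer1g* and *S100a9*), under 9% from *Col1a1*, and at least 2 *Tnmd* UMIs. This gave 686 cells of the 6471 Day 14 fibroblasts in the gate, of 16611 Day 14 barcodes and of 44693 barcodes in all. The reference was the 5383 cells of the same gate with 0 *Tnmd* UMIs, and the 402 cells with 1 *Tnmd* UMI were kept apart. Because these genes chose the cells, their levels are given as description only.

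The study followed skin repair by droplet-based single-cell RNA sequencing of wounds from adult male C57BL/6J mice, an inbred strain, on Days 3, 7 and 14. No engineered allele or agent is given for these mice, and the 3 groups differ in the day of harvest. Each day was 1 library of unsorted cells from the pooled tissue of several wounds. There is thus no replicate, no difference has a test, and a difference between days cannot be told apart from a difference between libraries. All intervals below are 95% intervals for counting error only, exact Poisson for levels, exact conditional binomial for ratios and Clopper-Pearson for shares.

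*Tnmd* encodes a type II transmembrane glycoprotein of the chondromodulin family. The gene lies on chromosome X, 133851008 to 133865577 (mm10, RefSeq). It is best known as a marker of mature tendon and ligament cells, where the transcription factors *Scx* and *Mkx* act upstream of it, and it is also expressed in other dense connective tissues. Skin fibroblasts are a mixed population. Papillary cells lie beneath the epidermis, reticular cells build the collagen bundles of the deeper dermis, and cells with *Pi16* and *Dpp4*, often called universal or fascia fibroblasts, lie deep and around vessels. Fibroblasts of granulation tissue can take on contractile, myofibroblast features during repair.

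The share of *Tnmd*-positive cells among gated fibroblasts was 0% on Day 3, 0.463% on Day 7 and 10.6% on Day 14. On Day 3 it was 0 of 367 cells, which allows a share of up to 0.817% by the limit of 3 counts (Clopper-Pearson upper bound 1.00%), and 4 cells had 1 UMI. On Day 7 it was 31 of 6695 cells (0.315 to 0.657%), and on Day 14 686 of 6471 cells (9.86 to 11.4%). The gated cells were deeper on Day 3 (median 45643 UMIs) than on Days 7 (10567) and 14 (10494). After every cell was thinned to 2000 UMIs, at least 1 *Tnmd* UMI was found in 0%, 0.463% and 7.05% of cells, and at least 2, the number the rule asks for, in 0%, 0.0299% (2 cells) and 1.79% (116 cells). The order of the days was the same at equal depth. The pooled level of *Tnmd* over all gated cells was 0.218 CPM (UMIs of a gene per 1000000 UMIs of the pool) on Day 3, 2.05 CPM on Day 7 and 47.9 CPM (46.3 to 49.5) on Day 14.

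**Figure D1:**
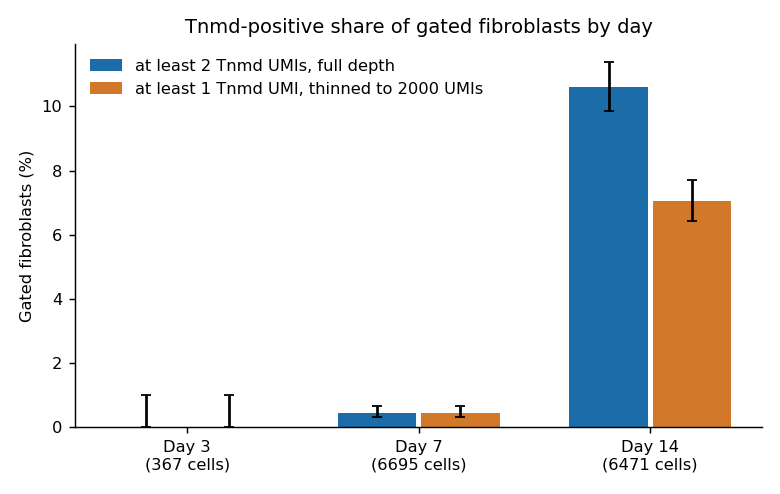
Share of gated fibroblasts (%, vertical axis) with at least 2 *Tnmd* UMIs at full depth (blue) and with at least 1 *Tnmd* UMI after thinning to 2000 UMIs (orange), in the library of each day. Bars are shares and error lines their 95% Clopper-Pearson intervals. The share was 0.463% on Day 7 by both measures, and 10.6% and 7.05% on Day 14.

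Among the 686 cells, 220 had 2 *Tnmd* UMIs, 140 had 3, and 1 cell had the highest count, 24. *Tnmd* lay within the fibroblast gate and the neighbouring cells past its *Col1a1* limit. Of the 977 Day 14 barcodes with at least 2 *Tnmd* UMIs, 250 were left out by the *Col1a1* limit, 24 by the myeloid limit, 11 by the fibroblast minimum and 6 by the UMI minimum. In myeloid barcodes, which should lack the gene, *Tnmd* was at 1.80 CPM, with a UMI in 0.840% of 2618 barcodes at a median depth of 4194 UMIs. This is the level that free RNA may give, against 335 CPM in the *Tnmd*-positive cells. The *Tnmd*-positive cells were somewhat deeper than the reference, with a median of 11980 UMIs (2231 to 45229) and 2996 genes against 10349 UMIs and 2762 genes. Of the *Tnmd*-positive barcode sequences, 2 also occurred in the Day 3 library and 7 in the Day 7 library. The doublet score called 73 of the 686 cells (10.6%), and 8.38% of the reference.

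Besides *Tnmd*, 5 genes were given as markers of these cells. They are *Gal* (the neuropeptide galanin), *Ccl19* (a chemokine that binds CCR7), *Ndufa4l2* (a mitochondrial protein induced in hypoxia), *Ppp1r14a* (an inhibitor of myosin phosphatase) and *Cdh4* (R-cadherin). All 5 had higher pooled levels in *Tnmd*-positive than in *Tnmd* 0 cells, but none marked most of the cells. *Gal* was at 12.4 CPM (10.2 to 14.9) against 4.25 CPM, with a UMI in 50 of the 686 cells (7.29%). *Cdh4* was at 25.6 against 7.03 CPM, and *Ppp1r14a* at 31.1 against 14.5 CPM. *Ccl19* was at 59.9 CPM (54.9 to 65.2) against 18.9 CPM, with a UMI in 34.4% against 10.4% of cells. *Ndufa4l2* was at 113 against 47.8 CPM, with a UMI in 44.6% of the *Tnmd*-positive cells. *Gal*, *Cdh4* and *Ppp1r14a* stayed under 50 CPM in both pools.

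The 5 markers were higher still in the 725 Day 14 fibroblasts that the *Col1a1* limit left out. There *Gal* was at 225 CPM (215 to 236) with a UMI in 49.2% of cells, *Ndufa4l2* at 623, *Ppp1r14a* at 185, *Cdh4* at 143 and *Ccl19* at 101 CPM. *Tnmd* was at 190 CPM there, with a UMI in 40.1% of cells. *Ppp1r14a* (201 CPM) and *Ndufa4l2* (354 CPM) were also high in pericyte barcodes. All 5 genes were thus higher past the *Col1a1* limit than in the *Tnmd*-positive cells inside it. *Tnmd* was also higher past the limit, at 190 CPM, than over all gated Day 14 cells, at 47.9 CPM. The cells are named here by *Tnmd* alone because the rule chose them by it. The name does not set them apart from the cells past the limit, although some genes described below, such as *Ccn3*, *Ncam1* and *Tagln*, were lower there.

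Pooled levels were compared for 2611 genes with at least 50 CPM in 1 of the pools and at least 10 UMIs in each. Of these, 24 (0.919%) were at least 2-fold higher in *Tnmd*-positive cells and 41 (1.57%) at least 2-fold lower, and the median log2 ratio over all 2611 genes was -0.02. The 24 higher genes were led by *Coch*, *Lgr5*, *Bcl11b*, *Ctla2a*, *Ccn3* and *C1qtnf3*. The lower genes were led by *Akr1c18*, *Gdf10*, the predicted gene *Gm26771*, *Sfrp2* and *Chrdl1*. The counts and their balance depend on the level limit, with 66 higher and 78 lower of 5223 genes at 20 CPM, and 325 higher and 238 lower of 12045 with no such limit. The rule used these same cells, so the counts are a description.

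**Figure D2:**
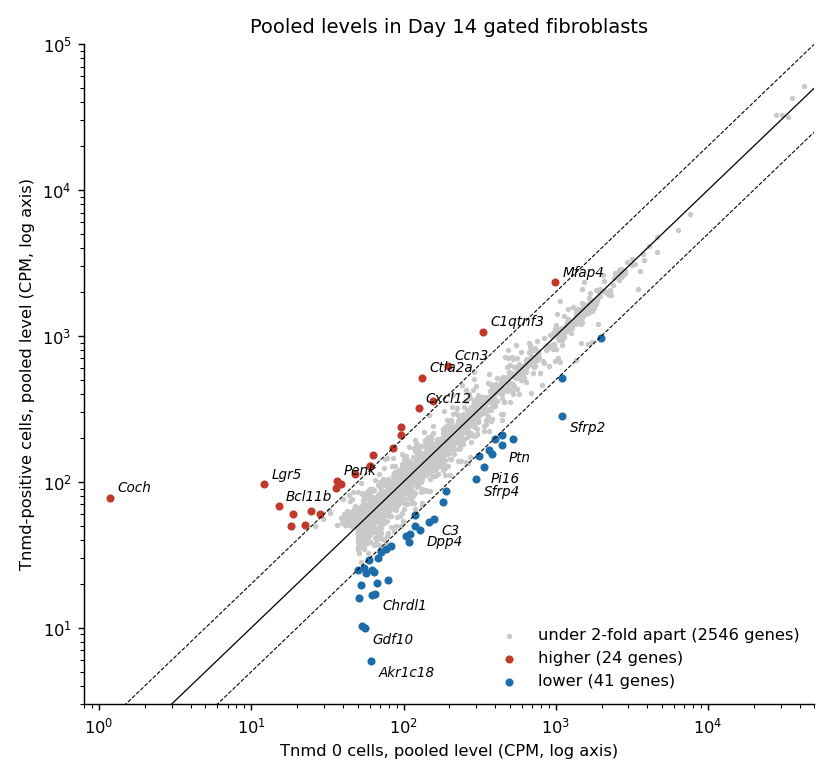
Pooled level of each compared gene in *Tnmd*-positive cells (vertical axis, CPM) against *Tnmd* 0 cells (horizontal axis, CPM), both on log axes, for Day 14 gated fibroblasts. Points are genes, red for the 24 at least 2-fold higher, blue for the 41 at least 2-fold lower and grey for the other 2546, the solid line marks equal levels and the dashed lines a 2-fold difference. *Coch* lies far to the left at 1.18 CPM in *Tnmd* 0 cells, and *Mfap4* is the most abundant of the red points.

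*Lgr5* (chromosome 10, 115450314 to 115587780), the receptor for R-spondins and a marker of several stem cell pools, was at 96.7 CPM (90.3 to 103) in *Tnmd*-positive and 12.2 CPM (11.3 to 13.1) in *Tnmd* 0 cells, a ratio of 7.94. It had a UMI in 265 of the 686 cells (38.6%) and 350 of the 5383, and in 15.3% against 2.06% after thinning to 2000 UMIs. Read the other way, 357 gated cells had at least 2 *Lgr5* UMIs, and 176 of them (49.3%) were *Tnmd*-positive. Outside the gate *Lgr5* was at 2.94 CPM in myeloid barcodes, at 22.4 CPM with a UMI in 9.03% of keratinocyte barcodes, and at 39.8 CPM with a UMI in 23.0% of the fibroblasts past the *Col1a1* limit. *Bcl11b* (chromosome 12, 107910403 to 108004145), a zinc-finger transcription factor of T cells and skin, was at 68.2 against 15.1 CPM and had a UMI in 48.4% against 9.21% of cells. It was higher in the fibroblasts past the *Col1a1* limit (75.6 CPM) and in keratinocyte barcodes (230 CPM, with a UMI in 68.0%) than in the *Tnmd*-positive cells. Neither gene rested on a few cells in the way that *Coch* did.

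*Coch* stood apart. It lies on chromosome 12, 51593283 to 51606619, and encodes cochlin, a secreted matrix protein best known from the inner ear. Its pooled ratio was the largest of the 2611, at 77.7 CPM (72.0 to 83.7) against 1.18 CPM, or 65.8-fold. Yet its 695 UMIs came from 34 of the 686 cells (4.96%), and 183 of them from a single cell. Without that cell the log2 ratio was 5.60 in place of 6.04, and with a fibroblast minimum of 3% it was 7.41. Only 19 of the *Tnmd*-positive cells had at least 2 *Coch* UMIs. *Coch* was thus a gene of few cells, and its UMIs do not describe the *Tnmd*-positive cells at large. Of the 34 cells with *Coch*, 9 (26.5%) also had *Lgr5* and 14 (41.2%) had *Ccl19*.

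*C1qtnf3*, a secreted protein with a complement C1q-like domain, was at 1065 against 334 CPM and had a UMI in 84.7% against 50.5% of cells. *Ccn3*, a matricellular protein of the CCN family, was at 626 against 195 CPM. In the fibroblasts past the *Col1a1* limit *C1qtnf3* was at 499 CPM and *Ccn3* at 67.1 CPM, below its *Tnmd* 0 level. *Mfap4*, an elastic fibre-associated glycoprotein, was at 2334 against 996 CPM with a UMI in 96.5% against 74.1% of cells. The matrix protein genes *Ecm2* (360 against 157 CPM) and *Svep1* (209 against 95.9 CPM) and *Csgalnact1*, an enzyme of chondroitin sulfate synthesis (50.8 against 22.7 CPM), were also higher. *Ecm2* had a UMI in 92.1% against 66.2% of cells and *Svep1* in 81.0% against 51.0%.

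*Pth1r*, the receptor for parathyroid hormone and its related protein, was at 50.1 against 18.3 CPM. *Penk*, the precursor of the enkephalins, was at 102 against 36.3 CPM, and *Cxcl12*, the ligand of CXCR4, at 320 (308 to 332) against 126 CPM. The axon guidance ligand *Slit2* (129 against 60.4 CPM), the adhesion molecule *Ncam1* (97.2 against 39.0 CPM), cyclin D1 (*Ccnd1*, 91.4 against 36.1 CPM) and the mTOR inhibitor *Deptor* (59.9 against 28.3 CPM) followed. *Ctla2a*, which encodes an inhibitor of cathepsin-like proteinases, was at 517 against 133 CPM. *Hpgd*, which inactivates prostaglandins, was at 238 against 96.6 CPM, and *Ddah1*, which breaks down methylated arginine, at 152 against 63.0 CPM. *Serpina3n*, a proteinase inhibitor, was at 128 against 60.0 CPM. Of these genes *Ctla2a* (583 CPM), *Hpgd* (297 CPM) and *Ccnd1* (108 CPM) were higher still in the fibroblasts past the *Col1a1* limit. *Ddah1* (92.2 CPM), *Penk* (71.1 CPM) and *Pth1r* (38.9 CPM) lay there between the *Tnmd* 0 and *Tnmd*-positive levels. *Cxcl12* (128 CPM) was near its *Tnmd* 0 level there, and *Ncam1* (17.6 CPM) was below it.

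Of the 41 lower genes, *Akr1c18*, a hydroxysteroid dehydrogenase, had the lowest ratio, with 5.92 CPM (4.44 to 7.75) against 61.4 CPM (59.4 to 63.4), a log2 ratio of -3.37. *Gdf10*, a ligand of the TGF-beta superfamily, was at 9.94 against 55.9 CPM and had a UMI in 7.14% against 28.2% of cells. *Sfrp2*, a secreted Wnt modulator, was the most abundant of the strongly lower genes, at 283 CPM (272 to 294) against 1103 CPM, with a UMI in 46.6% against 76.5% of cells. *Sfrp4* was at 104 against 301 CPM. *Chrdl1*, a BMP antagonist, was at 17.0 CPM, a log2 ratio of -1.94. *Ptgis*, which makes prostacyclin, was at 16.1 CPM, a log2 ratio of -1.67, complement *C3* at 55.6 against 159 CPM and the lipoprotein receptor *Vldlr* at 16.8 against 62.6 CPM. The transcription factor genes *Ebf2* (21.2 against 79.1 CPM) and *Tshz2* (20.1 against 66.5 CPM) were lower too. *Tmem100* (log2 ratio -1.49) and *Mpp6* (-1.42) completed the 15 lowest together with *Anxa3* and *Dpp4*, described next. Low levels of these genes were not limited to the *Tnmd*-positive cells. In the fibroblasts past the *Col1a1* limit *Sfrp2* was at 101 CPM, *Sfrp4* at 27.8, *Ebf2* at 9.28, *Tshz2* at 8.32, *Gdf10* and *Chrdl1* both at 7.59, *Ptgis* at 4.10 and *Akr1c18* at 2.05 CPM, all lower still, whereas *C3* was at 55.9, *Vldlr* at 28.3 and *Dpp4* at 62.4 CPM.

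Of 17 reticular, fascia and universal fibroblast genes 15 passed the limits, of which 0 were higher, 6 lower and 9 between, with a median log2 ratio of -0.89. Over all 2611 genes 0.919% were higher and 1.57% lower, and the median was -0.02. *Pi16*, a peptidase inhibitor and a usual marker of universal fibroblasts, was at 127 CPM (120 to 135) against 336 CPM. *Dpp4*, a cell surface dipeptidase, was at 46.9 against 128 CPM. *Anxa3* (53.0 against 147 CPM), the scavenging chemokine receptor *Ackr3* (73.1 against 182 CPM), *Plac8* (155 against 381 CPM) and *Dlk1* (29.9 against 68.5 CPM) were the others.

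Of 23 tendon and ligament genes 9 other than *Tnmd* passed, of which 0 were higher and 2 lower, with a median of -0.10, and over all genes 0.919% were higher and 1.57% lower, so 0 of 9 higher is near the background. The lower genes were *Thbs4*, a thrombospondin of tendon (42.8 against 104 CPM), and *Ptn*, the growth factor pleiotrophin (178 against 440 CPM). The top 69 of the 686 cells held 98.2% of the *Thbs4* and 80.2% of the *Ptn* UMIs. *Thbs4* rested on few cells, with a UMI in 11.1% against 13.4% of cells. *Ptn* had a UMI in 28.9% against 45.0% of cells, so it was also lower by the share of cells with a UMI. *Scx* was nearly absent, with 4 UMIs in the 686 cells (0.447 CPM, 0.122 to 1.14) and 33 in the 5383 reference cells (0.573 CPM). *Mkx*, the other tendon transcription factor, was at 18.1 CPM (15.4 to 21.1) against 4.30 CPM, with a UMI in 19.0% against 3.96% of cells, a log2 ratio of 2.07 (1.78 to 2.36) below the level limit. *Fmod*, the collagen-binding proteoglycan fibromodulin, was at 46.3 against 18.4 CPM and just missed that limit. *Comp* had 1 UMI and *Cnmd*, the closest relative of *Tnmd*, had 3. *Scx*, *Comp* and *Cnmd* were thus at or near 0, whereas *Mkx* and *Fmod*, both below the level limit, had higher pooled levels with *Tnmd*.

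The matrix lists below stand beside 0.919% of all genes higher and 1.57% lower. Besides *Col1a1*, the gate used *Col1a2*, *Col5a1*, *Col6a1* and *Col6a2* of the collagens, *Dcn* and *Lum* of the proteoglycans and *Pcolce* of the processing enzymes. Both pools were chosen by these genes, so the counts and medians of those 3 lists are description only. Of 17 collagen genes of several classes that passed, 0 were higher and 2 lower (*Col18a1* with a log2 ratio of -1.32 and *Col5a3* with -1.08), and the median was 0.03. *Col3a1* was at a log2 ratio of -0.10. *Col1a1*, which the gate used, was at 0.28, and *Col12a1* and *Col8a1* were at 0.96 and 0.89. Of 9 small leucine-rich proteoglycans 1 (*Ecm2*) was higher and 0 lower, with a median of 0.54. Of 15 elastic fibre genes *Mfap4* was higher and *Ltbp4* lower (-1.19), with a median of 0.17. No gene was past 2-fold among 15 collagen processing enzymes, with *Plod2* (-0.95) and *Lox* (0.73) farthest from 0, or among 11 matrix proteinases and inhibitors. Fibronectin (*Fn1*) was at 973 against 1970 CPM.

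Secreted signals are also given beside the shares over all genes, 0.919% higher and 1.57% lower. Of 4 Wnt genes that passed, *Sfrp2* and *Sfrp4* were lower, and *Sfrp1* (0.56) and *Dkk3* (0.71) lay above 0. Of 8 TGF-beta and BMP genes, *Gdf10* and *Chrdl1* were lower and 0 higher. Of 9 IGF genes, the binding proteins *Igfbp4* (197 against 527 CPM) and *Igfbp5* (512 against 1106 CPM) were lower and 0 higher. Of 13 chemokines and cytokines, *Ccl19* and *Cxcl12* were higher and 0 lower, while the median was -0.25 and *Ccl11* (-0.99) and *Ccl2* (-0.95) lay just inside the 2-fold limit. *Penk* was the only neuropeptide gene of 17 listed that passed. The galanin receptor genes *Galr1* and *Galr3* had no UMI in the Day 14 library, and *Galr2* was at 0.782 CPM in *Tnmd*-positive cells. *Ccr7*, which binds *Ccl19*, was at 20.1 CPM in myeloid barcodes and 1.23 CPM in *Tnmd*-positive cells, and *Cxcr4* at 194 and 3.69 CPM.

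*Itgbl1* (integrin beta-like 1), the gene that the study put forward, was at 453 CPM (439 to 467) in *Tnmd*-positive and 300 CPM (295 to 304) in *Tnmd* 0 cells, a log2 ratio of 0.59 that is under 2-fold. It had a UMI in 92.4% against 77.4% of cells. Of the 9 candidate genes of the study, which were chosen with the use of these libraries, 0 were higher and 2 (*C3* and *Pi16*) lower, where 0.919% of all genes were higher and 1.57% lower. Of 8 myofibroblast genes that passed, *Tagln* (63.2 against 24.7 CPM) and *Lrrc15* (172 against 85.1 CPM) were higher and 0 lower, with a median of 0.55. These counts stand beside the same shares of all genes. *Acta2*, *Myl9* and *Cnn1* of that list did not pass the limits, and *Tnc* was at -0.60. *Lrrc15* fell under 2-fold without the *Col1a1* limit (log2 ratio 0.61) and under 4 other alternatives. *Tagln* encodes an actin-binding protein of smooth muscle, and 90.6% of its UMIs came from the top 69 of the 686 cells. It was also the only smooth muscle gene of 10 that passed, and that list summed to 233 against 120 CPM. *Tagln* was at 2445 CPM in pericyte barcodes, whose list summed to 349 against 289 CPM in *Tnmd*-positive and *Tnmd* 0 cells, and to 237 against 241 CPM without *Ndufa4l2*. The part of such cells in the *Tagln* ratio was not tested.

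Summed levels in *Tnmd*-positive and *Tnmd* 0 cells were 28.6 and 55.5 CPM for 10 endothelial genes, 16.4 and 26.5 CPM for 8 Schwann cell genes, 9.16 and 14.6 CPM for 11 skeletal muscle genes, 281 and 298 CPM for 10 keratinocyte genes, 402 and 353 CPM for 15 immune genes and 455 and 324 CPM for 8 adipocyte genes. No endothelial, Schwann cell or skeletal muscle gene passed the level limit, so none could be compared. The 2 keratinocyte, 2 immune and 1 adipocyte genes that passed were under 2-fold apart, as were 1 cadherin (*Cdh11*, 0.63), 2 cartilage and bone genes (*Mgp*, -0.72, and *Matn2*, 0.29), 1 papillary or hair follicle gene (*Twist2*, 0.63) and the 10 immediate early and heat shock genes (median 0.07) that passed. No cell cycle gene passed. Among 8 hypoxia and glycolysis genes that passed, *Ndufa4l2* was higher and 0 were lower, beside 0.919% and 1.57% of all genes, and the median was -0.03.

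The *Tnmd*-positive cells did not form a single cluster. The 6471 gated cells were clustered without the marker genes above, which gave 16 clusters. Other genes compared here, such as *Coch*, *Sfrp2* and *C3*, were not left out, so they could help define the clusters. Cluster 10, with 211 cells, had the highest share of *Tnmd*-positive cells, 104 of 211 (49.3%, 42.4 to 56.2%). It was led by the haemoglobin gene *Hba-a1*, the complement gene *C6*, *Agt* and *Myoc*. Cluster 5 held 224 of its 652 cells (34.4%, 30.7 to 38.1%) and was led by *Coch*, *Wfdc12*, *Cdh4*, *Cyp26b1* and *Ppp1r14a*. Cluster 1 held 188 of 1095 cells (17.2%) and was led by *Thbs4*, *Fmod*, *Col8a1* and *Cilp*. These 3 clusters took 15.2%, 32.7% and 27.4% of all *Tnmd*-positive cells. Clusters 6 and 7, which were led by *Smpd3* and *Akr1c18*, held 0 of 569 and 1 of 359. Cluster 3, led by the interferon-induced genes *Ifit1* and *Cxcl9*, held 21 of 893 (2.35%).

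**Figure D3:**
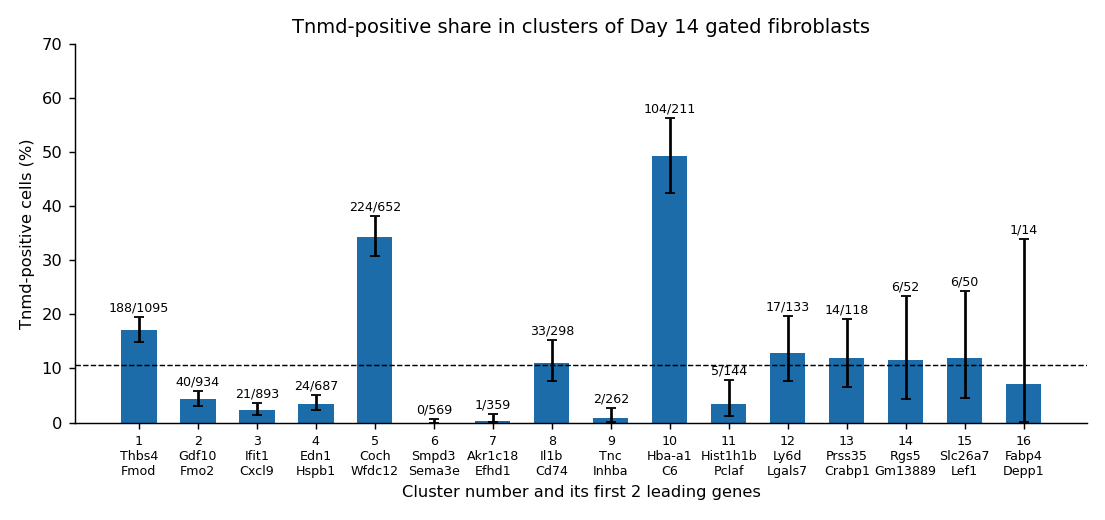
Share of *Tnmd*-positive cells (%, vertical axis) in each of 16 clusters of Day 14 gated fibroblasts, labelled by number and first leading genes. Bars are shares, error lines 95% Clopper-Pearson intervals, labels on the bars the *Tnmd*-positive cells of all cells, and the dashed line the share over all gated cells (10.6%). Clusters 10, 5 and 1, with 49.3%, 34.4% and 17.2%, have intervals wholly above the line, and clusters 8, 12, 13, 14 and 15, with 11.1% to 12.8%, lie just above it with intervals that include it.

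Haemoglobin RNA was rare in the *Tnmd*-positive cells but higher than in the reference, *Hba-a1* being at 22.5 against 0.972 CPM with a UMI in 1.31% of cells, and its part in cluster 10 was not tested. Clusters 8, 12, 14 and 16 were led by genes of antigen-presenting cells, keratinocytes, pericytes and endothelium. Without them, the share of *Tnmd*-positive cells was 10.5%, with 28 genes higher and 47 lower.

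Within clusters, the leading genes behaved differently from one another, and some ratios were nearer 0 than over all gated cells. Because genes other than the markers could help define the clusters, their ratios within clusters are not independent of the clustering. The part of the clustering in these ratios was not tested. *Sfrp2* was at -0.64 in cluster 1 and -0.71 in cluster 2, but at -2.05 in cluster 10. *Ctla2a* was at 0.59 in cluster 1 and 2.19 in cluster 10, and *C1qtnf3* at 0.46 in cluster 5 and 2.50 in cluster 2. *C3* was at -0.09 and -0.04 in clusters 1 and 5, with intervals across 0, and at -1.25 in cluster 10. *Itgbl1* was at 0.15 in cluster 1, 0.48 in cluster 5 and 0.19 (-0.04 to 0.43) in cluster 10. *Mkx*, at 2.07 over all gated cells, was at 0.68 (0.07 to 1.27) in cluster 1 and 0.42 (-0.10 to 0.94) in cluster 5. On 5, 9 and 25 UMIs it was at 1.11 (-0.61 to 2.49), 2.23 (0.76 to 3.69) and 1.70 (0.17 to 3.68) in clusters 2, 8 and 10. *Lgr5* was higher in *Tnmd*-positive than in *Tnmd* 0 cells inside clusters 1, 5 and 10, with log2 ratios of 2.75 (2.49 to 3.02), 1.39 (1.08 to 1.71) and 2.69 (1.59 to 4.05). In cluster 1 this was 137 against 20.3 CPM. *Ccn3* had ratios of 1.59, 1.64 and 1.68 in the same clusters, and *Gdf10* of -2.39 in cluster 1 and -1.61 in cluster 10, while its interval in cluster 5 crossed 0 (-2.40 to 0.25). *Bcl11b* was higher in clusters 1 (2.14) and 10 (1.51), whereas its ratio in cluster 5 was -0.02. *Coch* was found almost only in cluster 5, with 690 of its 695 UMIs, at 332 against 24.3 CPM there. It led that cluster and could help define it, so its confinement there is not independent of the clustering. The marker genes went in different directions by cluster. In cluster 5 *Gal* was at 28.8 CPM in *Tnmd*-positive and 69.0 CPM in *Tnmd* 0 cells, a log2 ratio of -1.26 (-1.71 to -0.83), *Ppp1r14a* at -1.06, *Ndufa4l2* at -0.83 and *Cdh4* at -0.77, while the interval of *Ccl19* crossed 0 (-0.16, -0.38 to 0.07). In cluster 2 *Gal* (2.48, 0.62 to 4.09), *Cdh4* (2.37) and *Ndufa4l2* (1.06) were higher, on 5, 5 and 67 UMIs, as were *Ndufa4l2* (2.33), *Cdh4* (2.39) and *Ccl19* (1.82) in cluster 8, *Ndufa4l2* (1.16) in cluster 10 and *Ccl19* (1.43) in cluster 1. Over all gated cells *Gal*, *Ppp1r14a*, *Ndufa4l2* and *Cdh4* had positive ratios. The universal fibroblast genes were also uneven. *Dpp4* was at -1.81 in cluster 5 and -1.12 in cluster 8. Its interval crossed 0 in clusters 1 (0.18, -0.10 to 0.46), 2 (0.23, -0.24 to 0.66) and 10 (-0.45, -0.96 to 0.07). *Anxa3*, lower over all gated cells, had a ratio of -0.84 in cluster 5 and of 0.16 (-0.11 to 0.42) in cluster 1, but was higher with *Tnmd* in cluster 2 (0.58, 0.19 to 0.96). Other pooled differences also turned inside a cluster. *Penk* was lower in the *Tnmd*-positive cells of cluster 10 (-0.96, -1.43 to -0.49) and higher in those of cluster 1 (0.91). *Cxcl12* was lower in cluster 2 (-0.65, with an interval below 0) and higher in clusters 1 (0.20), 5 (1.01), 8 (0.84) and 10 (0.61). *Akr1c18* was higher in cluster 1 (2.31, 0.77 to 3.94), on 10 against 7 UMIs, had 4 against 0 UMIs in cluster 10 and was lower in clusters 5 (-4.80) and 8 (-3.81). Cluster 7, which it led, held 1 *Tnmd*-positive cell.

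Levels were also read by the number of *Tnmd* UMIs per cell, the count that the rule used, for genes that were chosen by their ratio in the same cells. Cells were split into those with 0, 1, 2 to 3, 4 to 7 and 8 or more *Tnmd* UMIs (5383, 402, 360, 235 and 91 cells), whose median depth was 10349, 10266, 10515, 12534 and 17117 UMIs. *C1qtnf3* was at 334, 649, 860, 1191 and 1325 CPM over these classes, and *Ccn3* at 195, 359, 472, 697 and 865 CPM. *Sfrp2* was at 1103, 626, 324, 271 and 204 CPM. The cells just outside the threshold, with 1 UMI, lay between the reference and the cells just inside it for these 3 genes. *Lgr5* was at 12.2, 45.5, 91.0, 89.5 and 124 CPM, and *Mkx* at 4.30, 7.59, 14.4, 19.7 and 24.0 CPM. *Bcl11b* and *Ctla2a* levelled off from 2 UMIs on, at 67.0, 71.7 and 64.3 CPM and at 496, 525 and 551 CPM. *Penk* was at 36.3, 51.3, 120, 106 and 50.5 CPM, highest in cells with 2 to 3 UMIs and lower again in those with 8 or more. Median depth was similar in the classes up to 2 to 3 *Tnmd* UMIs and rose from 4 UMIs on, and its part in these levels was not tested. There were 25 genes higher and 47 lower when the reference was weighted to the depth of the *Tnmd*-positive cells.

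**Figure D4:**
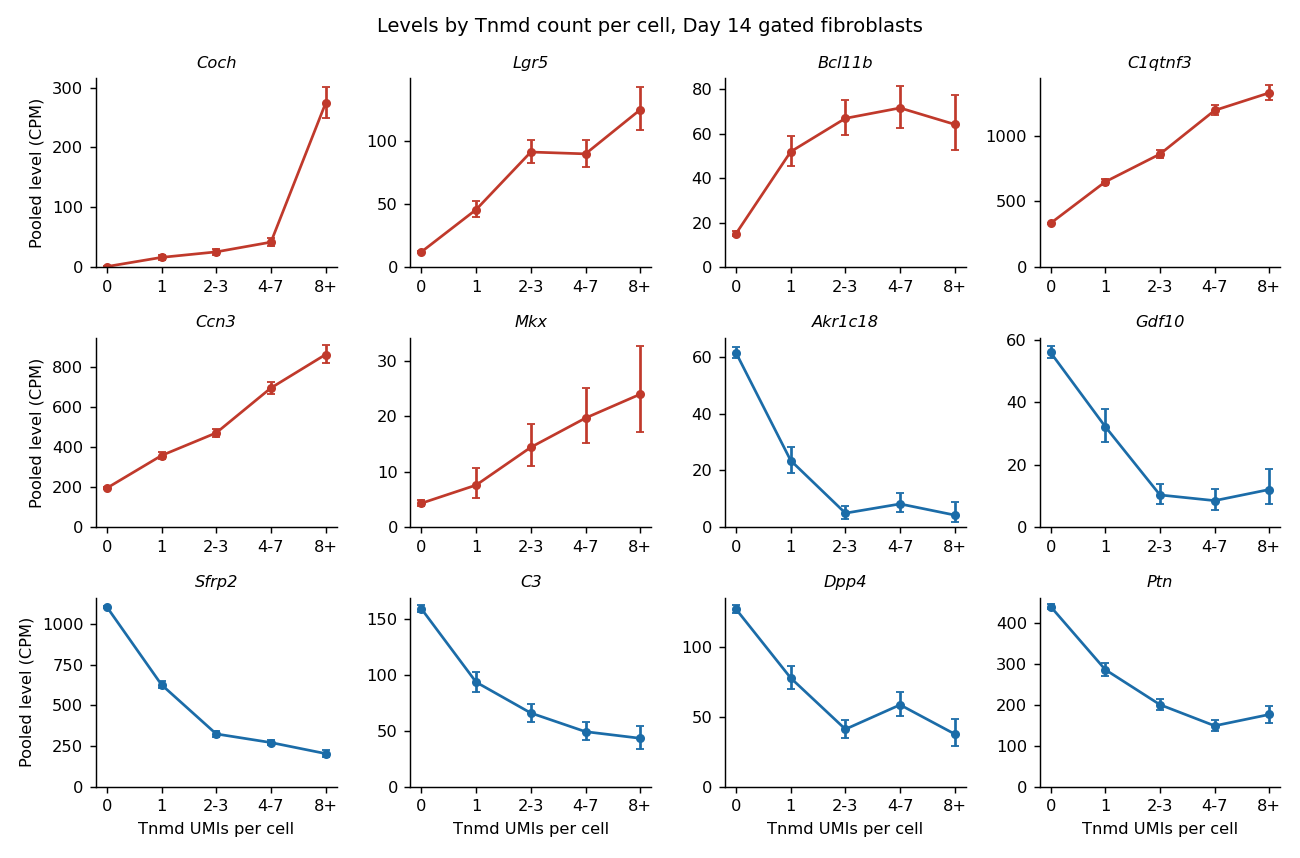
Pooled level (CPM, vertical axes from 0) of 12 genes in Day 14 gated fibroblasts with 0, 1, 2 to 3, 4 to 7 and 8 or more *Tnmd* UMIs per cell (horizontal axes). Points are pooled levels with exact 95% Poisson intervals, red where cells with 4 to 7 UMIs lie above cells with 0 and blue where they lie below. *Coch* was at 274 CPM in the 91 cells with 8 or more UMIs, on 5 cells with any *Coch* and at 165 CPM without the single cell with 183 UMIs, and *Sfrp2* was at 204 CPM there.

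On Day 7 the same rule found 31 *Tnmd*-positive cells (363203 UMIs, at most 7 *Tnmd* UMIs in a cell) against 6603 with 0, a library that the Day 14 rule did not use. There, 138 of 2990 genes (4.62%) were at least 2-fold higher and 105 (3.51%) at least 2-fold lower. The larger shares come with a much smaller pool. Of the 24 genes higher on Day 14, 17 passed the limits on Day 7, of which 15 lay above 0 and 2 below, 11 were at least 2-fold higher and 1 (*Ccn3*) at least 2-fold lower. The other 7 had too few UMIs, and of these 4 (*Penk*, *Deptor*, *Ccl19* and *Ccnd1*) lay above 0 and *Coch*, *Ndufa4l2* and *Hpgd* below. Of the 41 genes lower on Day 14, 30 passed, of which 27 lay below 0 and 3 above, 16 were at least 2-fold lower and 1 (*Thbs4*) at least 2-fold higher. Of the other 11, 10 lay below 0. The limits need 10 UMIs in the pool of 31 cells and so favour genes that were high there, and these counts are not read as support.

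*Bcl11b* on Day 7 was at 107 CPM in *Tnmd*-positive and 3.46 CPM in *Tnmd* 0 cells, a log2 ratio of 4.96 (4.43 to 5.45), on 39 UMIs. *Lgr5* was at 63.3 against 5.73 CPM (3.47, 2.79 to 4.07), on 23 UMIs. *Tagln* was at 606 against 95.3 CPM (2.67, 2.47 to 2.86), *Pth1r* at 1.95 (1.28 to 2.54), *Ncam1* at 1.48, *Ctla2a* at 1.47, *Lrrc15* at 1.42 and *C1qtnf3* at 1.26. Among lower genes, *Sfrp2* was at 377 against 1369 CPM (-1.86, -2.11 to -1.62), *Pi16* at -1.39 (-1.90 to -0.93), *Dpp4* at -1.42, *C3* at -1.72 and *Sfrp4* at -1.70. *Akr1c18* had 0 UMIs in the 31 cells and was at 65.6 CPM in the reference. *Gal* and *Coch* had 0 UMIs in the 31 cells, *Cdh4* had 1 and *Ccl19* had 3. *Itgbl1* was at 143 against 85.0 CPM (0.75, 0.33 to 1.15).

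**Figure D5:**
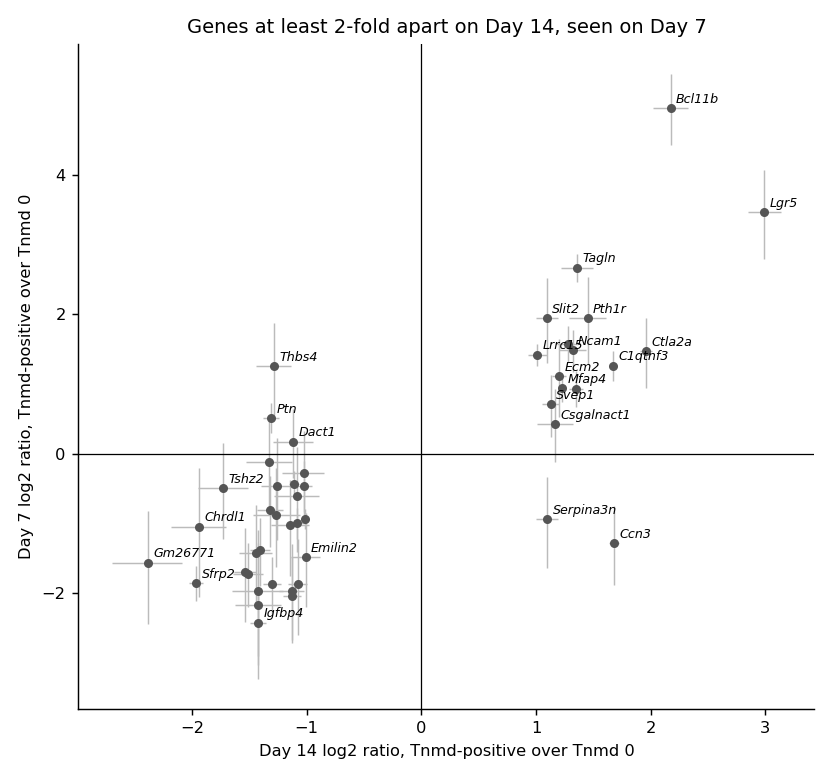
Log2 ratio of *Tnmd*-positive over *Tnmd* 0 cells on Day 7 (vertical axis) against Day 14 (horizontal axis) for the 17 higher and 30 lower genes of Day 14 that passed the limits on Day 7. Points are ratios and lines 95% intervals for counting error, and the genes named in the plot are a selection. *Bcl11b* and *Lgr5* lie at the upper right, while *Ccn3*, *Serpina3n*, *Thbs4* and *Ptn* lie on opposite sides of 0 on the 2 days with both intervals clear of it.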

How the data were processed

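Skin wounds were dissociated with an enzyme kit, red blood cells were lysed, and libraries were made with the 10x Genomics 3′ v3.1 chemistry. The authors deposited unnormalised UMI counts for every barcode, and the submitters' processing notes name Cell Ranger 6.0.0 and mm10. The 3 libraries held 38133650, 120940799 and 112713257 UMIs on Days 3, 7 and 14. They shared 43 (Days 3 and 7), 19 (Days 3 and 14) and 111 (Days 7 and 14) barcode sequences. Of 32285 Ensembl IDs, 32158 had a symbol in the reference table.

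UMIs were summed over cells and given as CPM (Python 3.11.15, scipy 1.17.1). The named genes are the 6 markers, the 15 highest and 15 lowest ratios, and, from 29 gene lists, the members with the largest ratios and those with a defining role. *Fn1*, *Csgalnact1*, *Svep1*, *Slit2*, *Deptor*, *Serpina3n*, *Hba-a1* and the leading genes of clusters were named after their values were seen. Members and lists were chosen with earlier results of these data known. Other cell types were barcodes with under 1% fibroblast genes and at least 0.5% of UMIs from the class list. Doublets were scored by simulated doublets among 50 neighbours and kept in the main analysis, and 44.2% of 500 added doublets were called. Leiden clustering (resolution 0.6) used 2000 variable genes. The ratio intervals were tried on simulated counts for the Day 14 comparison (2495 genes), where 95.2% held the true value. These counts were Poisson draws from pooled levels, without the spread between cells seen for *Coch*, *Tagln* and *Thbs4*. The result thus checks the calculation only, and does not show that the intervals are wide enough for these cells. The alternatives were other gates, depths, scalings and limits.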

Additional observations from a re-analysis of the deposited data

Results flagged for a closer look

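Of the genes at least 2-fold apart on Day 14, 4 had a log2 ratio of *Tnmd*-positive over *Tnmd* 0 cells on the opposite side of 0 on Day 7, with both counting intervals clear of 0. The difference between the days was not tested, since each day is 1 library. *Ccn3* was at 1.68 on Day 14 and -1.29 (-1.89 to -0.75) on Day 7, on 27 UMIs in the 31 cells. *Serpina3n* was at 1.10 and -0.94 (-1.63 to -0.33), on 21 UMIs. *Thbs4* was at -1.29 and 1.25 (0.56 to 1.87), on 21 UMIs. *Ptn* was at -1.31 and 0.51 (0.29 to 0.72), on 177 UMIs.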

How the results depend on the processing

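All 30 highest and lowest genes kept their direction under 15 alternatives, and 29 stayed past 2-fold under each. The exception was *Ncam1*, with 0.92 without a *Col1a1* limit. These genes were chosen by their ratios in the same cells, and the alternatives share most of those cells. Some alternatives only rescale all genes or leave out 1 cell, so this is not read as support. The split by cluster, inside which *Akr1c18*, *Penk*, *Anxa3* and *Cxcl12* turned, is not among the alternatives. Of other named genes, *Ppp1r14a* was at 0.78 with *Tnmd* at 4 UMIs, *Lrrc15* at 0.61, *Igfbp5* at -0.81 and *Mfap4* at 0.98 without a *Col1a1* limit, and *Thbs4* at -0.98, *Plac8* at -0.997 and *Serpina3n* at 0.96 with *Tnmd* at 1 UMI. The *Tnmd*-positive share moved to 13.0% without a *Col1a1* limit, 16.8% at 1 and 5.04% at 4 *Tnmd* UMIs, and 1.79% (2 UMIs) after thinning to 2000 UMIs. The count of lower genes was 66 without a *Col1a1* limit, and that of higher genes 39 after thinning. Counts of higher and lower genes were 66 and 78 at a limit of 20 CPM (5223 genes compared), 14 and 22 at 100 CPM (1367 genes), and 325 and 238 with no CPM limit (12045 genes). Under the other alternatives the counts were within 1.5 times. Leaving out the clusters led by other cell types and the cell with most *Coch* was chosen after seeing the data. No paired analysis was possible because each day is 1 library. With 1 library a day, the values describe these cells, and 31 cells on Day 7 limit that day's ratios.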
